A study of Marchantia polymorpha with 18 samples.

Results

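The 28 genes described here were more abundant in replicate 3 of the intact thallus than in replicates 1 and 2. This held in wild type and in the Mpglr-9 mutant. Their mean in crushed thallus lobes stayed between 0.5 and 2 times their mean in intact plants. They were chosen from the 19355 genes of the liverwort Marchantia polymorpha in the deposited table, of which they are 0.145%. Levels are in CPM, the count of a gene divided by all counts of its library and multiplied by 1000000. A member had a mean of at least 2 CPM over the 6 intact libraries. The lower of its levels in wild-type and mutant intact replicate 3 was at least 2 times the highest of its levels in the other 4 intact libraries. Its mean in damaged lobes lay between 0.5 and 2 times its intact mean in each genotype. Genes with the MpVg identifiers and the 100 most abundant genes of the intact libraries were left out. The choice therefore rests on the intact and the damaged libraries, and the values in those libraries are given below as a description with no test. The systemic libraries took no part in the choice.

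The study compared wild-type plants with Mpglr-9, a CRISPR deletion mutant of MpGLR. That gene encodes a channel protein of the glutamate receptor-like family. All plants had grown for 28 days on soil. In the wounded plants 2 lobes of the thallus, the flat plant body, were crushed with serrated forceps. The crushed lobes (damaged) and neighbouring uninjured lobes (systemic) were collected after 4 h, and thallus of plants that had not been wounded (intact) was collected at that time. Each genotype had 3 libraries of each of these conditions, 18 in all, and every library was a pool of 9 plants. The labels name a single mutant allele, Mpglr-9, and give no date or batch for the replicate numbers and do not say what a shared number stands for. In the counts, wild-type and mutant libraries of the same number deviated together from their group means in intact plants, with correlations across 13448 genes of 0.317, 0.488 and 0.681 for numbers 1, 2 and 3. The correlations were 0.253, 0.117 and 0.390 in damaged lobes and 0.088, 0.036 and 0.389 in systemic lobes. Genes are not independent replicates, and these values are a description. Damaged and systemic lobes came from wounded plants, and libraries of the same number may hold lobes of the same plants. The libraries held between 17312755 and 30690205 counts. In pooled thallus, fewer cells of a type and less RNA per cell cannot be told apart.

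Of the 28 members, 27 had an entry in the gene names used (assembly MpTak2_v7.1), and 7 of these had a symbol. Among the 7 were 5 LEA-like genes: MpLEA-like4 (Mp1g23200), MpLEA-like14 (Mp3g08260), MpLEA-like18 (Mp4g05730), MpLEA-like36 (Mp6g02990) and MpLEA-like37 (Mp6g03000). The others were MpGH19.3 (Mp2g24440), named for glycoside hydrolase family 19, and MpSAUR7 (Mp6g05120), of the small auxin-up RNA family. The remaining 21 members carry no symbol and are given by identifier alone, with no role. Late embryogenesis abundant (LEA) proteins are small, mostly hydrophilic proteins that were first described in maturing seeds and that accumulate in plant tissues losing water. Many become structured only as they dry, and they are thought to protect membranes and other proteins. In bryophytes, Marchantia among them, abscisic acid raises the transcripts of many LEA genes and the tolerance of vegetative tissue to drying. Family 19 glycoside hydrolases include plant chitinases, which cleave the chitin of fungal walls. SAUR genes of flowering plants are known as early auxin-responsive genes, many of which promote cell expansion.

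By their identifiers the members lie on all 8 autosomes, with 6 on chromosome 1, 4 each on chromosomes 3, 4, 6 and 7, 3 on chromosome 5, 2 on chromosome 2 and 1 on chromosome 8. Members that stand next to each other in the order of locus numbers were Mp1g03140 with Mp1g03150 and MpLEA-like36 with MpLEA-like37. The latter pair belongs to a stretch of 14 LEA genes between Mp6g02960 and Mp6g03130. Reads of close copies in such a stretch may be shared or lost in counting, so the separate levels of MpLEA-like36 and MpLEA-like37 are uncertain. Whether any members are near-identical in sequence was not analysed here.

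The choice began with 19102 genes, of which 11325 had a mean of at least 2 CPM in intact plants. The replicate 3 ratio was at least 2 for 105 of these. The bound on the damaged mean then removed 77 genes, 67 of them because the damaged mean fell under 0.5 times the intact mean in at least 1 genotype and 10 because it went over 2 times. Put to the other replicate numbers, the same rule found 0 genes high in replicate 1 and 0 in replicate 2, against the 28 in replicate 3. Genes low in 1 replicate number in the same sense numbered 0 for replicate 1, 1 for replicate 2 and 2 for replicate 3. Just inside the ratio stood Mp1g03140 at 2.02, Mp3g00900 at 2.03 and Mp1g24800 at 2.04. Just outside stood Mp2g01350 at 1.99, Mp2g02330 at 1.97 and Mp1g26550 at 1.90. At the damaged bound, MpLEA-like18 lay inside with ratios of damaged to intact mean of 1.00 in wild type and 0.503 in the mutant, Mp7g07330 with 0.529 and 0.557, and MpLEA-like14 with 0.537 and 0.741. On the other side lay MpLEA-like26 with 0.554 in wild type and 0.490 in the mutant, Mp6g07550 with 0.513 and 0.492, and Mp4g19390 with 0.491 and 0.577.

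**Figure D1:**
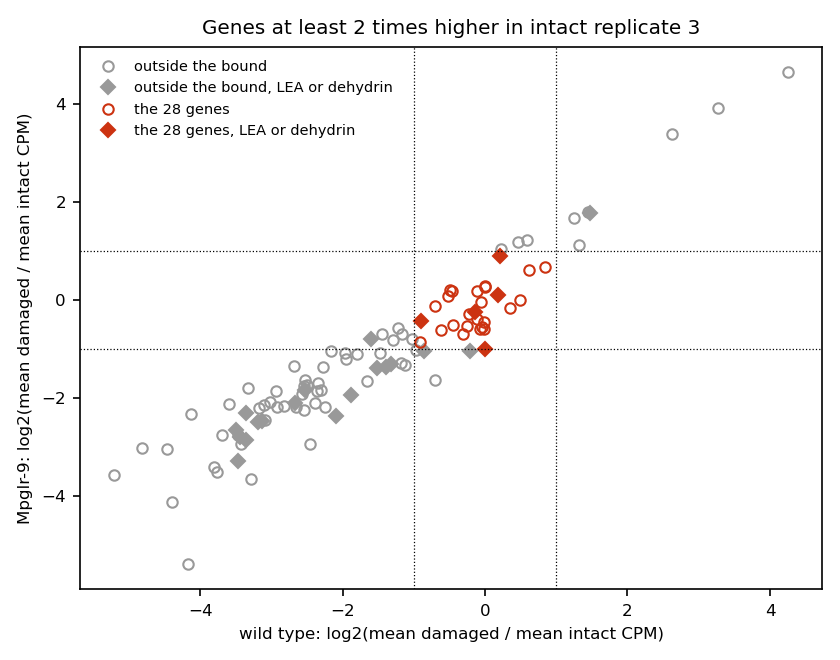
Log2 ratio of the mean damaged to the mean intact CPM in wild type (horizontal axis) and in Mpglr-9 (vertical axis) for the 105 genes whose replicate 3 ratio was at least 2, with the bounds of 0.5 and 2 as dotted lines and LEA or dehydrin genes as filled diamonds. The 28 members fill the square between the bounds, and 67 of the other 77 genes lie below it in at least 1 genotype.

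MpLEA-like36 had the widest ratio among the members, 26.7. In intact plants it stood at 0.142, 0.0445 and 7.95 CPM in wild-type replicates 1, 2 and 3, and at 0.179, 0.0372 and 4.79 CPM in the mutant. These low levels rest on 4, 1, 5 and 1 counts, against 244 and 131 counts in both replicate 3 libraries, so the ratio carries a large counting error. In damaged lobes it was at 4.04, 2.52 and 2.87 CPM in wild type and at 3.06, 3.53 and 2.72 CPM in the mutant. All 6 damaged libraries were thus close to one another and lay between the low and the high intact libraries. In systemic lobes it was at 0.740, 1.02 and 2.38 CPM in wild type and at 0.545, 0.365 and 1.49 CPM in the mutant, with replicate 3 the highest in each genotype.

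Its neighbour MpLEA-like37 showed the same arrangement at a higher level. Intact plants had 0.925, 0.267 and 24.1 CPM in wild type and 1.69, 0.856 and 12.5 CPM in the mutant. Damaged lobes had 12.2, 7.35 and 9.17 CPM in wild type and 5.73, 5.21 and 5.21 CPM in the mutant, a range that was narrower and did not put replicate 3 apart. Systemic lobes had 4.61, 5.55 and 10.4 CPM in wild type and 3.86, 1.05 and 7.89 CPM in the mutant, and again replicate 3 stood above the others in both genotypes.

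MpLEA-like18 was the most abundant LEA-like member, with 3.27, 4.85 and 28.5 CPM in intact wild type and 13.4, 3.80 and 35.8 CPM in the intact mutant. Mutant replicate 1 was here well above the other low intact libraries. In damaged lobes it had 17.9, 7.81 and 11 CPM in wild type and 8.21, 8.66 and 9.78 CPM in the mutant, and in systemic lobes 6.20, 10.8 and 13.6 CPM and 7.31, 4.30 and 13.1 CPM. MpLEA-like14 had 1.46, 0.712 and 28.9 CPM in intact wild type and 3.19, 0.968 and 13.4 CPM in the intact mutant. It was at 5.20, 4.83 and 6.66 CPM in damaged wild type and 3.95, 3.18 and 5.86 CPM in the damaged mutant, and at 3.77, 7.11 and 12.6 CPM and 3.18, 1.79 and 8.41 CPM in systemic lobes. MpLEA-like14 was the only LEA-like member in which both damaged replicate 3 libraries were also above the other 4. MpLEA-like4 had 1.81, 2.00 and 9.25 CPM in intact wild type and 2.19, 1.27 and 7.49 CPM in the mutant, and its systemic libraries held 2.96, 3.83 and 5.29 CPM against 1.95, 1.99 and 2.59 CPM. The wild-type systemic libraries of MpLEA-like4 were all above the mutant ones.

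Summed over the 5 LEA-like members, the intact libraries held 7.61, 7.87 and 98.7 CPM in wild type and 20.6, 6.92 and 73.9 CPM in the mutant. Damaged lobes held 44.3, 25.8 and 33.3 CPM in wild type and 24.2, 24.9 and 25.4 CPM in the mutant. Systemic lobes held 18.3, 28.3 and 44.3 CPM in wild type and 16.8, 9.49 and 33.5 CPM in the mutant. Every wounded library was therefore below both intact replicate 3 libraries and, except for mutant systemic replicate 2, above the wild-type intact replicates 1 and 2 by more than a factor of 2.

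MpSAUR7 had 0.534, 0.623 and 6.94 CPM in intact wild type and 0.969, 0.335 and 4.05 CPM in the intact mutant. Its damaged libraries lay between 1.46 and 2.66 CPM and its systemic libraries had 0.528, 1.13 and 2.11 CPM in wild type and 0.817, 0.284 and 1.18 CPM in the mutant. Replicate 3 was thus the highest of each set of systemic libraries but not of the damaged ones. MpGH19.3, in contrast, had a replicate 3 level of 3.81 CPM in intact wild type, where replicates 1 and 2 were at 1.49 and 1.69 CPM, and 6.83 CPM in the intact mutant, where they were at 1.51 and 1.41 CPM. In systemic lobes it had 1.37, 1.02 and 1.93 CPM in wild type and 2.22, 1.10 and 1.10 CPM in the mutant, so that mutant replicate 3 was not high.

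Mp5g20590 was the most abundant member, with a mean of 24.8 CPM over the intact libraries. Intact plants had 11.5, 18.2 and 42.4 CPM in wild type and 14.9, 16.9 and 45.2 CPM in the mutant. Unlike most members, its level in every damaged library, from 33.5 to 47.0 CPM, was close to that of intact replicate 3, which put its ratios of damaged to intact mean at 1.79 and 1.60. The systemic libraries were at 16.0, 15.1 and 20.7 CPM in wild type and 12.5, 13.8 and 23.7 CPM in the mutant. Mp6g06100 came next, with 2.81, 3.20 and 41.8 CPM in intact wild type and 15, 3.31 and 36.7 CPM in the intact mutant. Its damaged libraries ran from 11.1 to 17 CPM, around the level of mutant intact replicate 1 and below both intact replicate 3 libraries, and its systemic libraries had 8.31, 11 and 19.6 CPM in wild type and 9.94, 4.42 and 15.6 CPM in the mutant.

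The neighbours Mp1g03140 and Mp1g03150 had a like arrangement of their libraries. Mp1g03140 had 3.84, 2.45 and 35.7 CPM in intact wild type and 11.1, 3.02 and 22.3 CPM in the mutant, and Mp1g03150 had 1.17, 1.42 and 23.7 CPM and 3.27, 1.27 and 13.9 CPM. In systemic lobes Mp1g03140 had 6.66, 11.3 and 18.2 CPM in wild type and 8.90, 4.14 and 15.4 CPM in the mutant. Mp1g03150 had 4.09, 6.57 and 9.60 CPM and 3.45, 2.23 and 8.28 CPM there, with replicate 3 the highest in both genotypes for both genes. The other members among the 10 most abundant were Mp1g24800, with a mean of 12.5 CPM over the intact libraries, Mp1g25550 with 9.90 CPM and Mp7g05690 with 9.57 CPM. The remaining unnamed members had intact means from 2.01 CPM (Mp4g13460) to 6.33 CPM (Mp7g07330). Mp5g09850 and Mp3g11120 had 0 counts in wild-type intact replicate 2, where 3 counts correspond to 0.133 CPM, and 13.2 and 8.83 CPM in wild-type intact replicate 3.

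**Figure D2:**
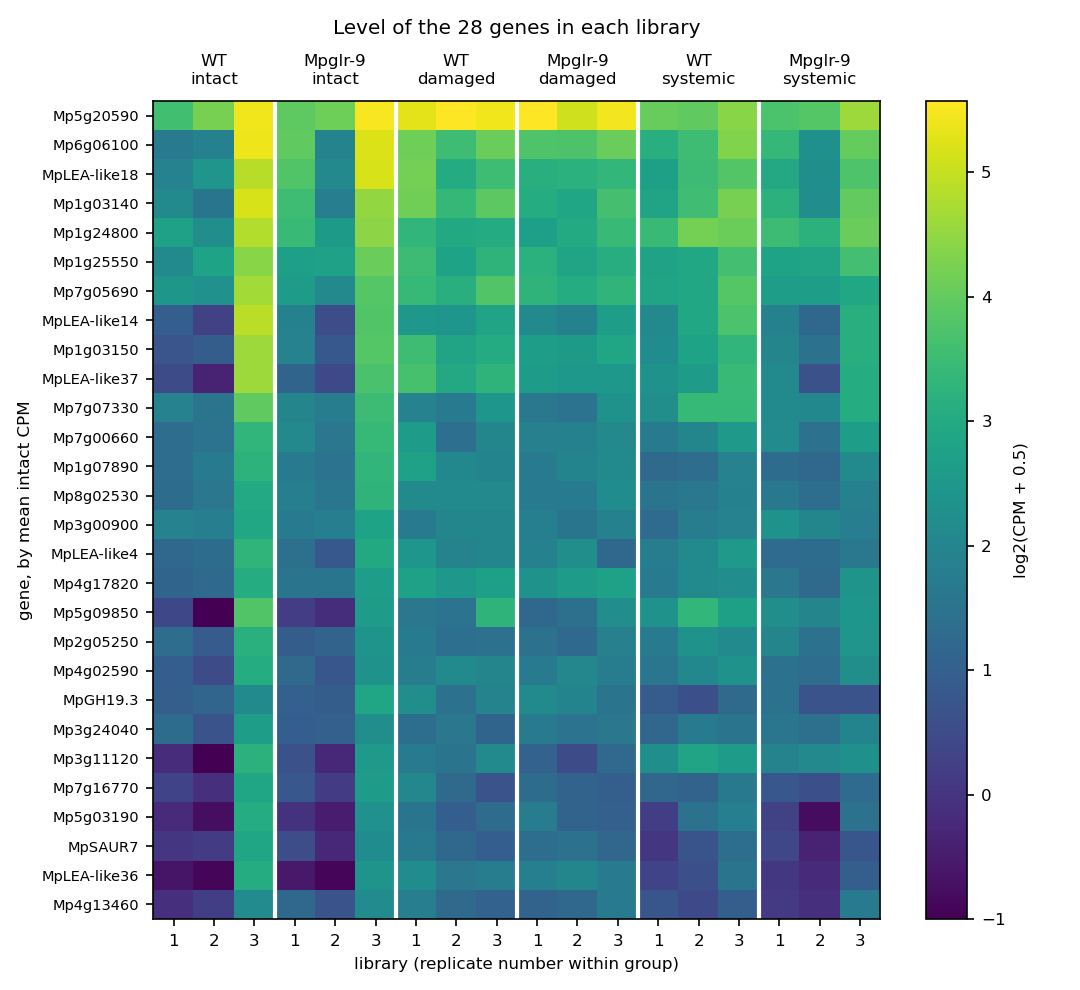
Level of each of the 28 members (rows, ordered by mean intact CPM) in the 18 libraries (columns, by group and replicate number), as log2 of CPM + 0.5 in colour. Both intact replicate 3 columns are the brightest for most genes, and the damaged columns are more even.

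Across the members, the median level was 1.90, 1.78 and 9.12 CPM in intact wild-type replicates 1, 2 and 3, and 2.55, 1.58 and 8.29 CPM in the mutant. Replicate 3 was a median of 5.93 times the mean of replicates 1 and 2 in wild type (range 2.29 to 85.1) and 3.58 times in the mutant (2.26 to 44.2). The low intact libraries were not alike. Mutant replicate 1 was above mutant replicate 2 for 22 of 28 members, and for 6 of them it was at least 2 times the other 3 low intact libraries. Wild-type replicate 3 was above mutant replicate 3 for 22 of 28 members. The choice used these intact values, and the shares of these counts over all genes were not computed. They are therefore not read as a trait of the members.

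In damaged lobes the median level was 4.59, 3.59 and 3.86 CPM in wild type and 3.09, 3.40 and 3.97 CPM in the mutant, between the low and the high intact medians. Both damaged replicate 3 libraries were above the other 4 for 3 of 28 members (MpLEA-like14, Mp7g07330 and Mp5g09850), against 15.6% of all genes tested in systemic lobes. Replicate 3 was a median of 0.983 times the mean of replicates 1 and 2 in damaged wild type and 1.18 times in the damaged mutant. Replicate 1 was the highest damaged library for 19 members in wild type (32.7% of all genes), and replicate 3 for 17 in the mutant (41.8%).

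The name wound-stable for these genes describes the mean only. Wild-type damaged replicates 1 and 2 were each above the intact library of the same number for 27 of 28 members, and damaged replicate 3 was below intact replicate 3 for 27. In the mutant the damaged library was above the intact one for 20 members in replicate 1 and 26 in replicate 2, and below it for 27 in replicate 3. The ratio of damaged to intact mean had a median of 0.942 in wild type and 0.870 in the mutant. The choice set intact replicates 1 and 2 low and replicate 3 high, and it bounded the damaged mean. Opposite differences by replicate number therefore largely follow from the choice, and their shares over all genes were not computed. Wild-type intact replicates 1 and 2 were below all 6 wounded libraries of that genotype for 18 of 28 members, where the share over all genes tested in systemic lobes was 3.08%. In the mutant this held for 7 members, where the share was 6.32%. Intact replicate 3 was above all 6 wounded libraries for 26 members in wild type (16.2% of all genes) and for 25 in the mutant (16.3%). The choice of members used these intact and damaged libraries, so nothing is read from these counts.

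**Figure D3:**
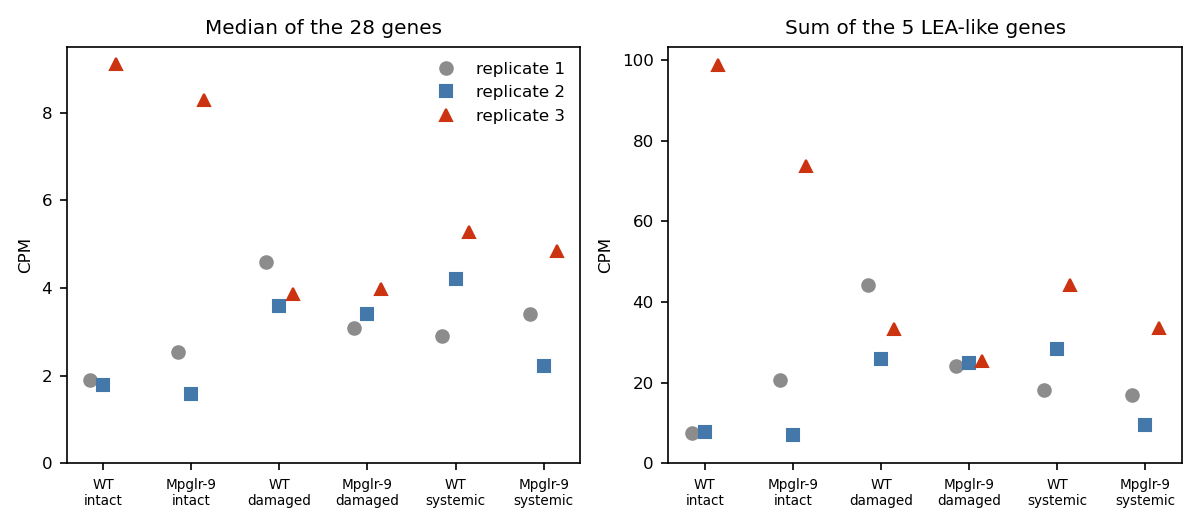
Median CPM of the 28 members (left) and summed CPM of the 5 LEA-like members (right) in each library, by group, with a marker for each replicate number. The intact replicate 3 medians, 9.12 and 8.29 CPM, are the highest of the 18, and the damaged medians lie between 3.09 and 4.59 CPM.

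The libraries of systemic lobes took no part in the choice, although their plants may be those of the damaged libraries that did. In systemic replicate 3, 9 of 28 members rose against replicates 1 and 2 and 0 fell (edgeR quasi-likelihood test with genotype in the model, Benjamini-Hochberg adjusted p under 0.05 over 13129 genes). Over all genes tested, 156 rose, which is 1.19%, and 221 fell, which is 1.68%. The log2 difference was positive for 27 of 28 members, against 49.9% of all genes, and its median over the members was 0.79, against -0.00018 over all genes. At an unadjusted p under 0.05 stood 18 members and 1888 of all genes. Both systemic replicate 3 libraries were above the other 4 systemic libraries for 18 of 28 members, against 9.25% of all genes.

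MpLEA-like36, whose systemic levels are given above, had the largest difference among those that passed, a log2 difference of 1.57 ± 0.34 (SE, adjusted p = 0.0132, 2 libraries against 4). Mp4g13460 had 1.20, 0.862 and 1.48 CPM in systemic wild type and 0.590, 0.446 and 2.72 CPM in the mutant, and rose by 1.45 ± 0.38 (adjusted p = 0.048). Its replicate 3 stood out more in the mutant than in wild type. Mp1g03150 rose by 1.20 ± 0.23 (adjusted p = 0.0146). Each of these 3 calls was lost without mutant systemic replicate 3, where the differences were 1.46 for MpLEA-like36 (adjusted p = 0.296), 0.50 for Mp4g13460 (adjusted p = 0.868) and 0.88 for Mp1g03150 (adjusted p = 0.344). MpLEA-like36 also lost the call without wild-type systemic replicate 3 (1.72, adjusted p = 0.178). The call of Mp4g13460 was lost as well without wild-type systemic replicate 2 (adjusted p = 0.068) and without mutant systemic replicate 1 (0.128) or 2 (0.149), and with DESeq2 (0.112) and limma-voom (0.0699). Without wild-type systemic replicate 3 its difference was 2.39 (adjusted p = 0.0173).

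Mp1g25550 had 6.44, 7.06 and 11.7 CPM in systemic wild type and 6.49, 6.65 and 11.7 CPM in the mutant, and rose by 0.82 ± 0.12 (adjusted p = 0.000847). Its replicates 1 and 2 were close to each other in both genotypes, and replicate 3 was at the same level in each. Mp5g20590, the most abundant member, rose by 0.64 ± 0.10 (adjusted p = 0.00125). Mp7g05690 had 6.66, 7.06 and 13.9 CPM in wild type and 5.77, 5.80 and 7.19 CPM in the mutant, and rose by 0.71 ± 0.15 (adjusted p = 0.0134). In this gene replicate 3 stood out more in wild type. Mp1g07890 had 1.90, 2.05 and 3.28 CPM in wild type and 2.00, 1.83 and 3.90 CPM in the mutant, and rose by 0.89 ± 0.22 (adjusted p = 0.0346). Mp7g00660 had 2.82, 3.56 and 5.25 CPM and 3.99, 2.23 and 5.87 CPM, and rose by 0.84 ± 0.21 (adjusted p = 0.0408). Mp4g02590 had 2.50, 3.72 and 4.71 CPM and 2.22, 2.03 and 4.21 CPM, and rose by 0.80 ± 0.21 (adjusted p = 0.0479). In all 9 genes that rose, both replicate 3 libraries were above the other 4.

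Among these 6 genes, the call of Mp7g05690 was the only one kept without mutant systemic replicate 3. It was lost without wild-type systemic replicate 3, where the difference was 0.32 (adjusted p = 0.583), and without wild-type systemic replicate 1 (0.62, adjusted p = 0.0517). Without mutant systemic replicate 3, Mp1g25550 had a difference of 0.80 (adjusted p = 0.0801) and Mp5g20590 one of 0.42 (adjusted p = 0.254), and both kept the call without any other single library. The calls of Mp1g07890, Mp7g00660 and Mp4g02590 were lost without either replicate 3 library, with differences of 0.62 to 1.04 and adjusted p from 0.154 to 0.623. They were also lost without wild-type systemic replicate 1 or mutant systemic replicate 2 (adjusted p from 0.0748 to 0.140), and those of Mp1g07890 and Mp4g02590 without mutant systemic replicate 1 (0.0581 and 0.0782).

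The other LEA-like members were higher in systemic replicate 3 but did not pass the test. The log2 difference was 1.49 ± 0.30 for MpLEA-like14 (adjusted p = 0.0523), 1.36 ± 0.46 for MpLEA-like37 (adjusted p = 0.309), 0.95 ± 0.31 for MpLEA-like18 (adjusted p = 0.270) and 0.55 ± 0.21 for MpLEA-like4 (adjusted p = 0.211). Of these 4, all but MpLEA-like4 had both replicate 3 libraries above the other 4. MpSAUR7 was higher by 1.29 ± 0.40 (adjusted p = 0.105), Mp1g03140 by 1.16 ± 0.38 (adjusted p = 0.322) and Mp6g06100 by 1.09 ± 0.33 (adjusted p = 0.282). The estimate for Mp5g03190 was the largest of the 28, at 1.70 ± 0.70 (adjusted p = 0.359). Its systemic levels were 0.669, 2.26 and 3.05 CPM in wild type and 0.726, 0.0811 and 2.24 CPM in the mutant, where replicate 2 held 2 counts. At the other end stood Mp3g11120 at 0.18 ± 0.19, Mp5g09850 at 0.10 ± 0.31, MpGH19.3 at 0.08 ± 0.36 and Mp3g00900 at -0.02 ± 0.25, whose adjusted p ran from 0.758 to 0.986. The 95% intervals of these 4 ended at 0.58 for Mp3g11120, 0.83 for Mp5g09850, 0.84 for MpGH19.3 and 0.51 for Mp3g00900. For 2 of them the members' median of 0.79 was therefore within the interval. Mp5g09850 had 4.58, 9.65 and 6.19 CPM in systemic wild type and 4.22, 3.45 and 5.0 CPM in the mutant, with wild-type replicate 2 the highest. Mp3g00900 had 1.97, 2.96 and 3.28 CPM and 4.68, 3.57 and 2.98 CPM, with replicate 3 the highest in wild type and the lowest in the mutant.

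The count of 9 depended on single libraries: it was 1 without mutant systemic replicate 3, 4 without wild-type systemic replicate 3, 6 without wild-type systemic replicate 1 and 14 without wild-type systemic replicate 2. With DESeq2 it was 5, with all 18 libraries in the model 1, and with the 12 libraries of the wounded plants, in which the term for replicate 3 also covers the damaged lobes, 3. In DESeq2 5 of the 9 calls were lost, among them that of Mp1g07890 (adjusted p = 0.142), and 1 other member was called.

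**Figure D4:**
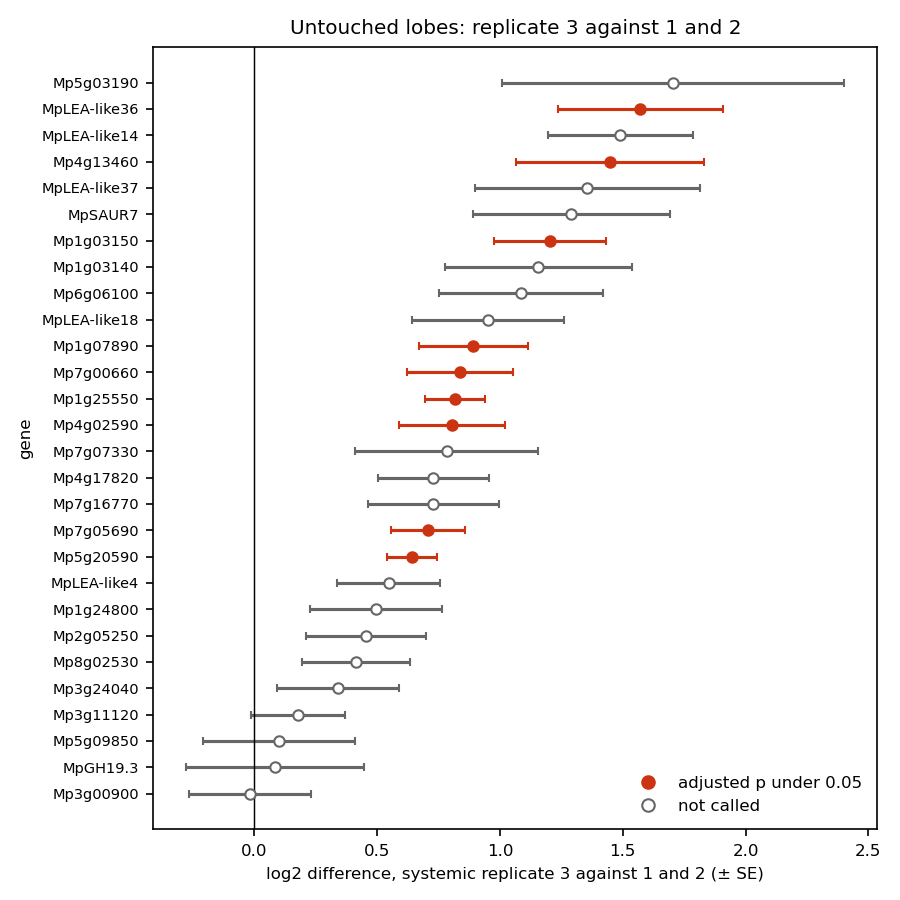
Log2 difference of systemic replicate 3 from systemic replicates 1 and 2 for each of the 28 members, with the SE of the edgeR fit as a bar, ordered by size and filled where the adjusted p was under 0.05. The 9 members that passed the test lie between 0.64 and 1.57, and 27 of 28 estimates are above 0.

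Within each genotype, systemic replicate 3 was the highest of the 3 libraries for 22 of 28 members in wild type (34.0% of all genes) and for 26 in the mutant (33.6%). Its level was a median of 1.59 times the mean of replicates 1 and 2 in wild type (0.871 to 2.70) and 1.93 times in the mutant (0.660 to 5.54). Replicate 2 was above replicate 1 for 24 members in wild type and below it for 23 in the mutant. The shares over all genes were not computed, so these counts are not read as a trait of the members. Across 13448 genes, the deviations of wild-type systemic replicate 1 correlated at 0.322 with mutant replicate 2 and at 0.088 with mutant replicate 1. For wild-type systemic replicate 2 the values were 0.036 and 0.081. A test of whether the replicate 3 difference itself differed between the genotypes called 0 of 28 members, against 0.00745% of 13429 genes (1 gene). In it 3 members (Mp4g13460, Mp5g20590 and Mp7g05690) had an unadjusted p under 0.05. The share of all genes at that p was not computed, so nothing is read from these 3.

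Between the genotypes, 22 of the 28 members had a lower estimate in the mutant in systemic lobes, but 0 passed the test. Of 12929 genes tested, 24 were higher in the mutant, which is 0.186%, and 4 were lower, which is 0.0309%. Among the 28 members 0 passed in edgeR, 0 in DESeq2 and 0 in limma-voom, with 3 members and 1172 of all genes at an unadjusted p under 0.05 in edgeR. The log2 difference of mutant from wild type was negative for 22 of 28 members, against 49.9% of all genes, with a median of -0.35 and a range from -0.96 to 0.46. MpLEA-like4, whose libraries did not overlap between the genotypes, was lower by a log2 difference of -0.88 ± 0.25 (adjusted p = 0.254). The other LEA-like members had estimates from -0.80 to -0.30, and that of MpLEA-like36, -0.78, had a 95% interval from -2.16 to 0.61. The median of -0.35 was -0.07 without mutant systemic replicate 2, -0.09 without wild-type systemic replicate 3, -0.60 without wild-type systemic replicate 1 and -0.79 without mutant systemic replicate 3. The spread within each genotype here includes the difference of replicate 3 from replicates 1 and 2.

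In both genotypes the mean of the members was more often lower in systemic lobes than in intact plants, for 23 of 28 members in each, with a median ratio of 0.811 in wild type and 0.761 in the mutant. These ratios rest on the intact libraries that chose the members and are a description only. Damaged lobes had a higher mean than systemic lobes for 17 of 28 members in each genotype, with a median ratio of 1.14 in wild type (0.449 to 2.49) and 1.22 in the mutant (0.384 to 3.88). The 3 damaged libraries were all above the 3 systemic ones for 7 members in wild type, where the share of all genes was 28.3%, and for 5 in the mutant, where it was 26.7%. They were all below for 3 members in wild type and 1 in the mutant, where the share was 33.4% in each. The damaged mean was bounded by the choice, and these counts are given without a test.

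LEA genes made up 5 of the 28 members, or 17.9%, while they were 0.433% of the genes with a mean of at least 2 CPM in intact plants. The deposited table held 72 genes with LEA or dehydrin symbols, of which 49 reached that mean. The replicate 3 ratio in intact plants was at least 2 for 23 of these 49, or 46.9%, against 0.927% of all 11325 genes. Of the 23, 5 were members, 17 had a damaged mean under the bound, and 1, MpLEAL3, was above it. Most LEA genes that were high in intact replicate 3 were thus kept out of the members by their lower damaged mean. The intact values behind these shares are those the choice used.

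In systemic lobes 60 of the LEA and dehydrin genes were tested, and 11 rose in replicate 3 and 2 fell, with a median log2 difference of 0.67 and 46 positive estimates. Without the 5 members, 10 of 55 rose and 2 fell, with a median of 0.60. The other 37 tested genes had a replicate 3 ratio under 2 or a mean under 2 CPM in intact plants. Of these 37, 2 rose and 2 fell, with a median of 0.12. The largest estimates of the family were those of MpLEA-like60 (2.17 ± 0.47, adjusted p = 0.0222), MpLEA-like61 (2.13 ± 0.33, adjusted p = 0.00711), MpLEA-like34 (2.09 ± 0.63, adjusted p = 0.0918) and MpLEA-like28 (2.07 ± 0.35, adjusted p = 0.00204), none of them a member. The 2 that fell, named here after their values were seen, were MpLEA-like33 (-0.41) and MpLEA-like54 (-0.63). In the stretch of 14 LEA genes on chromosome 6, 8 genes were tested, all 8 had positive estimates, and 1, the member MpLEA-like36, passed.

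**Figure D5:**
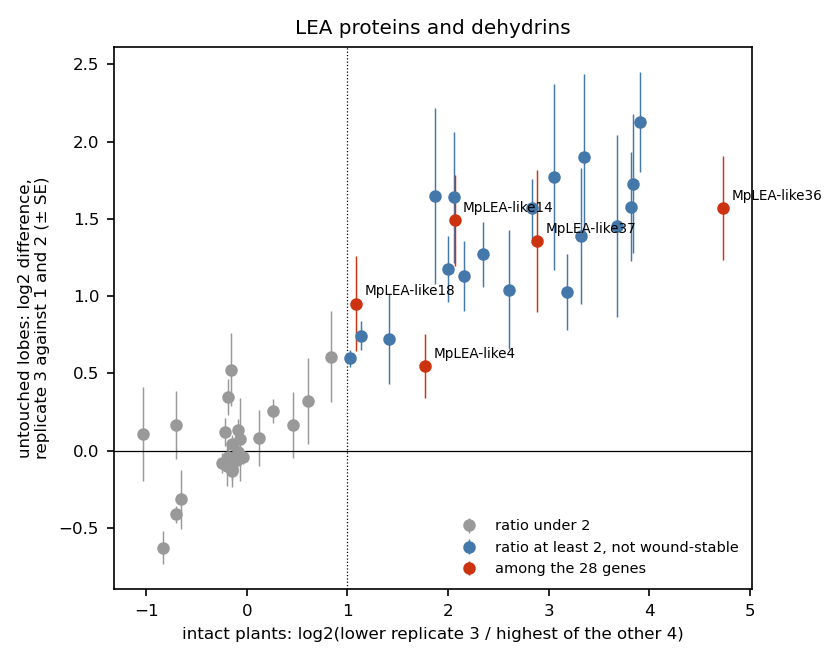
Log2 of the replicate 3 ratio in intact plants (horizontal axis, the lower replicate 3 level over the highest of the other 4) and log2 difference of replicate 3 in systemic lobes (vertical axis, edgeR estimate with its SE) for the 49 LEA and dehydrin genes with a mean of at least 2 CPM in intact plants. The 5 members lie among the other 18 LEA genes to the right of the dotted line at a ratio of 2, all with positive systemic estimates.

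Of 12 core genes of abscisic acid signalling in the table, among them receptors, kinases and transcription factors, 6 were tested in systemic lobes. Among these 0 were called by edgeR, with a median log2 difference of 0.10, and 0 had passed the replicate 3 ratio in intact plants. In the families of the other named members, 1 of 12 tested SAUR genes rose (MpSAUR13, by 0.85, adjusted p = 0.0233, with an intact ratio of 1.99) and 0 of 12 tested GH19 genes were called.

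Of the genes that passed the intact ratio but not the damaged bound, 67 had a low damaged mean. Their median log2 difference in systemic replicate 3 was 1.34. Of these 67, 26 were called higher (1.19% of all genes) and 67 were positive (49.9%). Both systemic replicate 3 libraries were above the other 4 for 50 of them (9.25% of all genes). In damaged lobes both replicate 3 libraries were above the other 4 for 51 of these 67 and for 3 of the 28 members. The share over all genes tested in systemic lobes was 15.6%. LEA and dehydrin genes were 17 of the 67. The 10 genes with a high damaged mean had a median of 0.48, with 0 called, 4 at an unadjusted p under 0.05 and 9 of 10 positive. The median of the members, 0.79, lay between those of the 2 sets. The sets were divided by the damaged libraries, and the difference between them was not tested.

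Other gene lists are set here against the shares over all genes in systemic replicate 3, 1.19% higher and 1.68% lower. Clock and light signalling (15 genes tested), heat shock (6), cytochrome P450 (85) and cell division (40) each had 0 called. Class III peroxidases, which act on the cell wall, had 2 called higher and 15 lower of 102, cell wall genes 0 and 7 of 29, phenylpropanoid and flavonoid genes 0 and 6 of 58, dirigent genes 0 and 3 of 40, and nutrient transport genes 0 and 2 of 27. Of 124 transcription factor genes, 3 were higher and 1 was lower. Most calls in the peroxidase, cell wall, phenylpropanoid, dirigent and nutrient transport lists were lower. The called members were all higher, but they had been chosen for high levels in intact replicate 3 and the lists had not. The direction of calls is therefore not compared between members and lists. The lists were drawn up by gene symbol, so the 21 members without a symbol could not enter them. None of the 7 members with a symbol belongs to any of these lists.

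Markers of the other cell types that a thallus sample holds were also counted. Of 20 markers of reproductive organs, the apical notch, oil body cells, rhizoids, air pores and gemma cups, 19 were tested in systemic lobes and 0 were called, with log2 differences from -0.89 to 0.20. In intact plants 1 of the 20, the gemma cup gene MpGCAM1, passed the replicate 3 ratio (2.21), and its damaged mean was outside the bound. The summed apical notch markers ran from 300 to 317 CPM in intact replicate 3 and from 264 to 298 CPM in intact replicates 1 and 2, those of oil body cells from 137 to 139 and from 146 to 171 CPM, and those of gemma cups from 64.4 to 66.9 and from 59.0 to 61.2 CPM. For reproductive organs the ranges overlapped, from 274 to 276 and from 258 to 287 CPM. Rhizoid markers overlapped too, from 476 to 482 and from 481 to 511 CPM. The air pore marker did so as well, from 94.9 to 99.5 and from 86.6 to 96.2 CPM. In systemic lobes the reproductive organ markers ran from 271 to 275 CPM in replicate 3 and from 276 to 289 CPM in replicates 1 and 2. There the air pore marker ran from 93.8 to 95.9 and from 78.2 to 89.1 CPM. The systemic ranges of apical notch, oil body cell, rhizoid and gemma cup markers overlapped. The part of any marker difference in the levels of the members was not tested. The total counts of the libraries are given above, and wild-type intact replicate 3 was the deepest of the 18.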

How the data were processed

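The values are raw counts of reads for each of 19355 genes, as the authors deposited them for 18 libraries. Per the submitters' processing notes they used HISAT2 and HTSeq. The sources used here do not give their versions or options, the strand setting or the genome build. Without a known strand setting, reads of overlapping genes cannot be told apart. Per the labels' protocols, libraries were made from poly-A RNA and read as pairs of 150 bases. Names came from assembly MpTak2_v7.1, which held 17384 of the 19355 identifiers (89.8%). Chromosomes were read from the identifiers, and no coordinate was used. MpGLR has no symbol in these names and was not analysed here.

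CPM was computed from column sums. The 6 systemic libraries were fitted with edgeR 4.0.16 in R 4.3.3 (filterByExpr, TMM, robust quasi-likelihood, two-sided), with genotype plus a replicate 3 term, or with genotype alone, and p-values were adjusted by Benjamini-Hochberg over all genes tested. SE is the log2 difference over the square root of F. DESeq2 1.42.0, limma 3.58.1, other scalings, no filter, other sets of libraries, a replicate block and leaving out each library were tried. The scripts were tested on simulated counts, with the spread between libraries set to a dispersion of 0.05 and not estimated from these data. Of 100 genes given a 2-fold change, 44 were called in the replicate 3 test and 58 in the genotype test. Of 100 given a 4-fold change, 97 and 99 were called. A limit of 3 counts was taken for a gene with 0 counts, which covers counting error only. The members held between 780 and 12021 counts each over the 18 libraries, and 6 of 504 values rested on fewer than 3 counts.

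Members and lists were chosen with earlier results of these data known, and the LEA, abscisic acid, SAUR and GH19 lists were drawn up after the members' values had been seen. Genes named are the members with a symbol, the 10 most abundant in intact plants, the 8 largest and 4 smallest systemic replicate 3 differences, members called, those at the thresholds, neighbours, and up to 4 genes of a list. Replicates within a group are separate pools of plants per the labels, while damaged and systemic libraries of the same number may share plants.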

Additional observations from a re-analysis of the deposited data

How the results depend on the processing

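The number of members called higher in systemic replicate 3 (9) was 9 with RLE scaling, 10 with upper-quartile scaling, 9 with limma-voom, 19 with no filter on low counts, 5 with DESeq2, 1 with all 18 libraries and 3 with the 12 libraries of wounded plants. Leaving out each systemic library in turn gave 1 to 14. Over all genes, 377 were called, against 806 with no filter and 102 with all 18 libraries, and 49 to 481 with a library left out. The median over the members was 0.45 with the 12 libraries, against 0.79. The cause of these differences was not tested. For MpGH19.3 the estimate of 0.08 was -0.12 with the 12 libraries and -0.58 to 0.66 with a library left out. For Mp3g00900 (-0.02) it was 0.093 with the 12 libraries and -0.46 to 0.44, and for Mp5g09850 (0.10) it was -0.16 to 0.41 with a library left out.

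Between the genotypes, 28 genes were called, against 70 with no filter, 59 with DESeq2, 7 with all 18 libraries and 4 to 34 with a library left out. The pairing of the systemic libraries by replicate number was not shown. The correlations of same-numbered libraries, 0.088, 0.036 and 0.389, were not all over 0.1, whereas those of the intact and the damaged libraries, which entered no test between genotypes, all were (0.117 to 0.681). In systemic lobes 1 of 3 wild-type libraries, number 3, correlated best with its own number. With a replicate block 173 genes and 1 member (MpLEA-like4, adjusted p = 0.0444) were called, and with the block and all 18 libraries 16 genes.

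The rule found 12 genes at a ratio of at least 3, 12 at a mean of at least 5 CPM and 105 with no bound on the damaged mean, against 28. With TMM-scaled CPM it found 29, including all 28. The median log2 differences of damaged replicate 3 (0.09) and of damaged against systemic lobes (0.21) moved by less than the spread under the other scaling and pseudocount.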
